A study of Mus musculus with 2 samples.

Results

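The subunits of nicotinic acetylcholine receptors were examined in total RNA sequencing of the newborn mouse adrenal gland. The members were 10 genes chosen by symbol and matched by Ensembl identifier, out of 43346 Ensembl genes in the tables. They were 6 neuronal (ganglionic and brain) subunits, Chrna3, Chrna4, Chrna5, Chrna7, Chrnb2 and Chrnb4, and 4 muscle subunits, Chrna1, Chrnb1, Chrnd and Chrng. They were chosen as a gene family and not by a cut on measured values, but with earlier results of these data known. All 10 had a row in both libraries. The tissue was adrenal gland of strain B6NCrl at postnatal day 0. There were 2 libraries, 1 from each of 2 pups listed under pregnant animal 1, and each was made from 2 adrenals and 10 ng of RNA with spike-ins added. No genetic change or treatment is named in the labels, and sex was not collected. Both libraries form 1 group, so there is no contrast between conditions and no test across samples. The library of pup 1 held 41510071 estimated counts and that of pup 2 held 40800539.

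Nicotinic receptors are cation channels built from several subunits around a central pore, and acetylcholine binds at the interface of an alpha subunit with its neighbour. In the adrenal medulla, acetylcholine released by preganglionic sympathetic fibres opens receptors on chromaffin cells and so triggers the release of catecholamines. Receptors with alpha3 and beta4 are the classical ganglionic form, alpha5 joins them as an accessory subunit, alpha4 with beta2 is the main brain form, and alpha7 can form a receptor by itself. The fetal muscle receptor is built from the products of Chrna1, Chrnb1, Chrnd and Chrng.

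Of the neuronal genes, Chrna5, Chrna3 and Chrnb4 lie side by side on chromosome 9 (GENCODE M21 coordinates on GRCm38, the build of the files). Chrna5 (ENSMUSG00000035594.9) runs on the plus strand at chr9:54980880-55007779. Chrna3 (ENSMUSG00000032303.6) follows on the minus strand at chr9:55010111-55026562, and its 3′ end is 2331 bases from that of Chrna5. Chrnb4 (ENSMUSG00000035200.6) is on the minus strand at chr9:55028154-55048779, 1591 bases beyond the start of Chrna3. The trio spans 67.9 kb. The other neuronal genes are on separate chromosomes, with Chrna4 (ENSMUSG00000027577.10) at chr2:181018380-181043546, Chrna7 (ENSMUSG00000030525.7) at chr7:63098692-63212569 and Chrnb2 (ENSMUSG00000027950.3) at chr3:89746195-89764632, all on the minus strand. Of the muscle genes, Chrnd (ENSMUSG00000026251.9, chr1:87190607-87200070) and Chrng (ENSMUSG00000026253.10, chr1:87204657-87212694) are neighbours on the plus strand with 4586 bases between them. Chrna1 (ENSMUSG00000027107.3, chr2:73563215-73580338) and Chrnb1 (ENSMUSG00000041189.9, chr11:69784036-69795943) are on the minus strand.

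Upstream sequence is shown for the members of the chromosome 9 cluster and of the muscle set whose window holds at most 1 annotated exon base, with Chrnb2 beside them, to set ganglionic beside muscle promoters. The windows are the 250 bases before the RefSeq start site on GRCm38.p6, written 5′ to 3′ on the strand of the gene. Capitals mark the E box CANNTG, which reads the same on both strands and is the core that MyoD-family and other basic helix-loop-helix factors bind, and the GC box GGGCGG or its complement CCGCCC.
Chrna3 (minus strand, chr9:55026563-55026812): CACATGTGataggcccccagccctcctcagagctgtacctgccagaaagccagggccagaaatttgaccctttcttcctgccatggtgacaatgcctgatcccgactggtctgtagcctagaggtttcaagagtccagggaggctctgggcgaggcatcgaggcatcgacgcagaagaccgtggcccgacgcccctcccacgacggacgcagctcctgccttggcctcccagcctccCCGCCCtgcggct
Chrna5 (plus strand, chr9:54980630-54980879): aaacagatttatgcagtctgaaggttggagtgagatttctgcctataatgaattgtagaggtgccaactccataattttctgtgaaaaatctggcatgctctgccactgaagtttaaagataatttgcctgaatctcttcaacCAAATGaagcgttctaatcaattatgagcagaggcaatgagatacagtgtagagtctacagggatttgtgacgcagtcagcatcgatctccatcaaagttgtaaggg
Chrnb2 (minus strand, chr3:89764633-89764882): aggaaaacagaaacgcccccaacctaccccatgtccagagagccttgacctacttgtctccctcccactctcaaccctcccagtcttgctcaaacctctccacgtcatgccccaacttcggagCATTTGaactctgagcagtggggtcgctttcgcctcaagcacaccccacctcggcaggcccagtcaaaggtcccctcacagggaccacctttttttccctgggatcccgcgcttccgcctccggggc
Chrna1 (minus strand, chr2:73580339-73580588): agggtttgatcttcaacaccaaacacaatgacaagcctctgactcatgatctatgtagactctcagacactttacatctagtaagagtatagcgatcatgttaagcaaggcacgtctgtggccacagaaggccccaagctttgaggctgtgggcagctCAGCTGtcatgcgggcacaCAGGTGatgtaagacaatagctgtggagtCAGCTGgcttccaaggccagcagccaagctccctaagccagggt
Chrng (plus strand, chr1:87205561-87205810): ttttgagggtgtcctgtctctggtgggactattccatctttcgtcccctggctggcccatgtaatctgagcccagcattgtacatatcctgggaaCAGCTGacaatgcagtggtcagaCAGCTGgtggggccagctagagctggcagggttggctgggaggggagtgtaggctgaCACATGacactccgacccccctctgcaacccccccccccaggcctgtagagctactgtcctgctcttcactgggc
The Chrng window lies inside the gene as annotated, before the start of a shorter transcript.

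The muscle windows of Chrna1 and Chrng each held 3 E boxes, 2 of which had the letters CAGCTG. In Chrna1 the CAGCTG copies stood 92 and 44 bases before the start site, and in Chrng 155 and 132 bases before it. Of 32851 mouse promoter windows of the same length, 13.0% held CAGCTG and 1.26% held it at least 2 times. The neuronal windows that are printed held no CAGCTG. Chrna3 held 13 CpG dinucleotides, against a median of 6 over all windows, and a GC box 13 bases before its start. Its only E boxes were the overlapping CACATG and CATGTG at the far end, 250 and 248 bases before the start. Chrna5 held 3 CpG and 1 E box, Chrnb2 held 10 CpG and 1 E box, and Chrna1 and Chrng held 3 and 2 CpG. The letters did not divide the sets: the window of the muscle gene Chrnb1, not printed, held 14 CpG, 4 GC boxes, 3 E boxes and 0 copies of CAGCTG. The second Chrna5 window, also not printed, held 17 CpG, 4 GC boxes and 2 E boxes. RefSeq windows were found for 9 of the 10 members and numbered 10, because Chrna5 has a second start site. Any E box was present in 9 of the 10 windows, CAGCTG in 3 and a GC box in 5, against 66.2%, 13.0% and 32.7% of all windows. The third CAGCTG was in the window of Chrnb4, a neuronal gene. These are matches of letters, and no binding was measured.

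Neuronal subunits were far more abundant than muscle subunits in both pups. Levels are given as deposited TPM, a per-length share of the library that can be compared between genes. The 6 neuronal members summed to 49.9 TPM in pup 1 against 29.17 in pup 2. The 4 muscle members summed to 1.48 and 2.29 TPM. The neuronal sum was therefore 33.7-fold above the muscle sum in pup 1 and 12.7-fold above it in pup 2, a log2 ratio of 4.37 ± 0.99 (SD, n = 2). The sets did not overlap gene by gene in pup 1, where the lowest neuronal subunit, Chrnb2, stood at 2.19 TPM and the highest muscle subunit, Chrnb1, at 1.28 TPM. They overlapped in pup 2, where Chrnb1 at 2.10 TPM was above Chrnb2 at 1.56 TPM and Chrna5 at 1.54 TPM. With the sum of Chrna1, Chrnd and Chrng alone as the muscle level, 0.20 TPM in pup 1 against 0.19 in pup 2, the log2 ratio was 7.61.

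**Figure D1:**
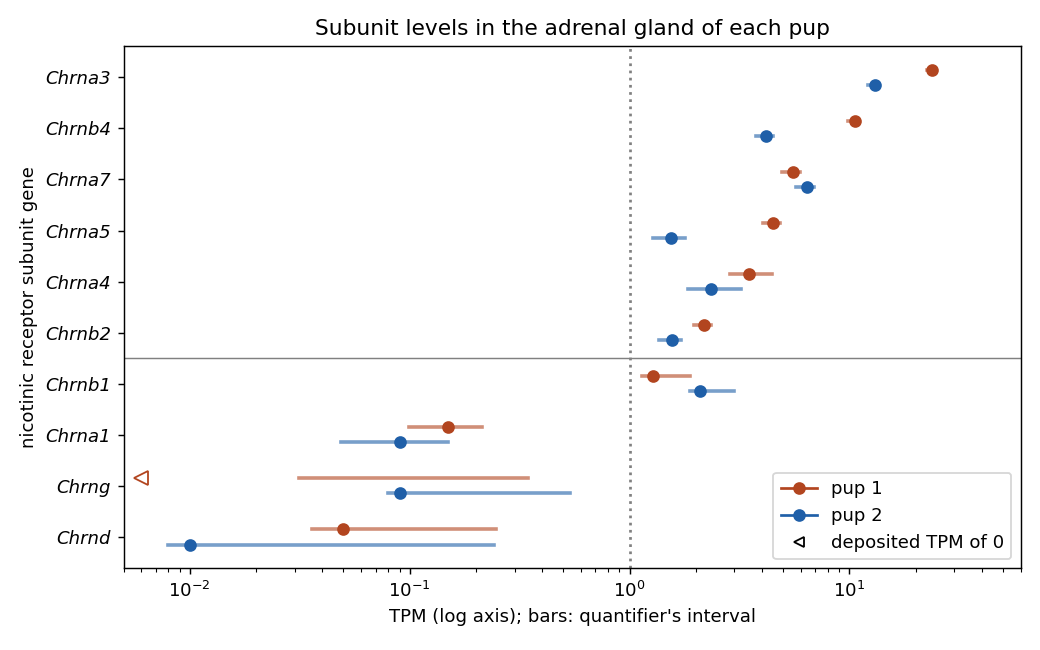
TPM of each nicotinic subunit in pup 1 and pup 2 on a log axis, with bars for the quantifier's interval, a dotted line at 1 TPM and an open triangle for a listed TPM of 0. All 6 neuronal subunits and Chrnb1 lie above 1 TPM in both pups, while Chrna1, Chrnd and Chrng lie below it.

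Of the 10 members, 7 reached 1 TPM in both pups: all 6 neuronal subunits and Chrnb1. That level was reached by 32.9% of all Ensembl genes and by 60.5% of protein-coding genes.

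Chrna3, the ligand-binding alpha subunit of the ganglionic receptor, was the most abundant nicotinic subunit in both pups. It stood at 23.65 TPM in pup 1 (quantifier's interval 22.5 to 24.2, from 2886 counts) and at 13.12 TPM in pup 2 (12.2 to 13.6, from 1300 counts). Among protein-coding genes this is the 81.3 percentile in pup 1 and the 67.6 percentile in pup 2. Its partner Chrnb4, the beta subunit of the same receptor, followed at 10.55 TPM (9.88 to 10.9) in pup 1 and stood at 4.19 TPM (3.75 to 4.49) in pup 2. Chrna5, which joins the receptor without forming the usual binding site, stood at 4.50 TPM (4.05 to 4.84) and 1.54 TPM (1.27 to 1.79). For each gene of the trio pup 1 was higher and the intervals of the pups did not overlap.

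**Figure D2:**
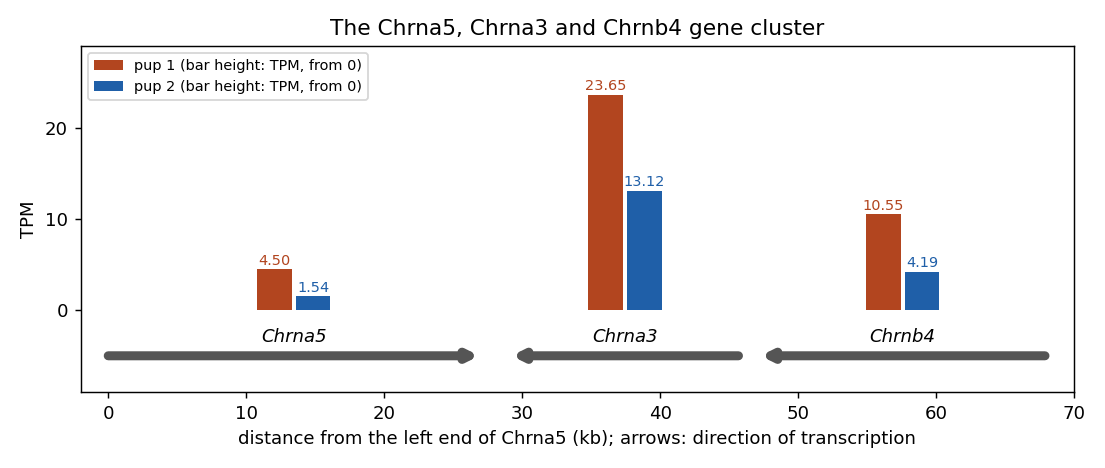
The Chrna5, Chrna3 and Chrnb4 genes drawn to scale as arrows in the direction of transcription, against distance from the left end of Chrna5 in kb, with bars from 0 for TPM in each pup. Chrna3 is highest in both pups (23.65 and 13.12 TPM), and all 3 genes are higher in pup 1.

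Chrna7, the subunit of the homomeric receptor, was near 6 TPM in both pups: 5.52 TPM (4.95 to 5.96) in pup 1 and 6.42 TPM (5.72 to 6.93) in pup 2, with overlapping intervals. Chrna4, the alpha subunit of the main brain receptor, stood at 3.49 TPM (2.88 to 4.47) and 2.34 TPM (1.84 to 3.22), also overlapping. Chrnb2, its beta partner, stood at 2.19 TPM (1.96 to 2.36) and 1.56 TPM (1.36 to 1.72), which did not overlap. Chrnb2 shares 1365 exonic bases with Adar, an RNA editing gene on the opposite strand at 4.19 and 6.62 TPM. The strand handling of the counts is not stated. The counts of Chrnb2 were whole, 466 and 270, and the quantifier recorded no uncertainty in them. Whether reads in the shared stretch were assigned to the right gene was not tested.

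The ligand-binding muscle subunit Chrna1 had 26 counts in pup 1 and 13 in pup 2, or 0.15 TPM (0.099 to 0.213) and 0.09 TPM (0.049 to 0.149). Chrnd had 6 counts and 1 count. Chrng, the subunit of the fetal receptor that epsilon replaces in the adult, had 0 counts in pup 1 and 3 in pup 2, both no more than the 3 counts that a count of 0 allows. These genes were at or near the limit of detection. For Chrng the listed TPM of 0 in pup 1 lies below the quantifier's own interval of 0.031 to 0.346. Chrnb1 differed from the rest of the muscle set, with 100 and 131 counts, 1.28 TPM (1.14 to 1.88) in pup 1 and 2.10 TPM (1.89 to 2.98) in pup 2. It held 86.5% of the muscle subunit TPM in pup 1 and 91.7% in pup 2.

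In order of mean TPM (± SD, n = 2) Chrna3 stood at 18.4 ± 7.45, Chrnb4 at 7.37 ± 4.50 and Chrna7 at 5.97 ± 0.64. Below them were Chrna5 at 3.02 ± 2.09, Chrna4 at 2.92 ± 0.81, Chrnb2 at 1.88 ± 0.45 and Chrnb1 at 1.69 ± 0.58. Chrna1 at 0.12 ± 0.042, Chrng at 0.045 ± 0.064 and Chrnd at 0.03 ± 0.028 came last. First place and the low set were the same in both pups. Chrnb4 and Chrna7 changed places between the pups, as did Chrnb2 and Chrnb1. Chrna5 was above Chrna4, Chrnb2 and Chrnb1 in pup 1 and below all of them in pup 2. These genes therefore cannot be ordered beyond their spread. Chrna1 and Chrng were both listed at 0.09 TPM in pup 2.

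The make-up of the neuronal set differed between the pups more for some subunits than for others. Chrna3 took 47.4% of neuronal subunit TPM in pup 1 and 45.0% in pup 2 (46.2 ± 1.71%). Chrnb4 took 21.1% and 14.4%, and Chrna5 took 9.02% and 5.28%. Chrna7 went the other way, with 11.1% and 22.0%. Chrna4 held 6.99% and 8.02%, and Chrnb2 held 4.39% and 5.35%. The chromosome 9 trio thus made up 77.6% of neuronal subunit TPM in pup 1 and 64.6% in pup 2. TPM ratios within a library do not depend on the scaling between libraries. Chrna3 was 2.24-fold above Chrnb4 in pup 1 and 3.13-fold above it in pup 2, so the ganglionic alpha and beta transcripts were not in a fixed ratio. Chrna4 was 1.59-fold and 1.50-fold above Chrnb2, the steadiest of the 6 ratios computed between subunits. That holds for gene totals only: the main coding transcript of Chrna4, at 1.72 and 1.50 TPM, was below Chrnb2, at 2.19 and 1.56 TPM. In pup 2 the quantifier's intervals overlapped, 1.21 to 1.65 for that transcript and 1.36 to 1.72 for Chrnb2.

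**Figure D3:**
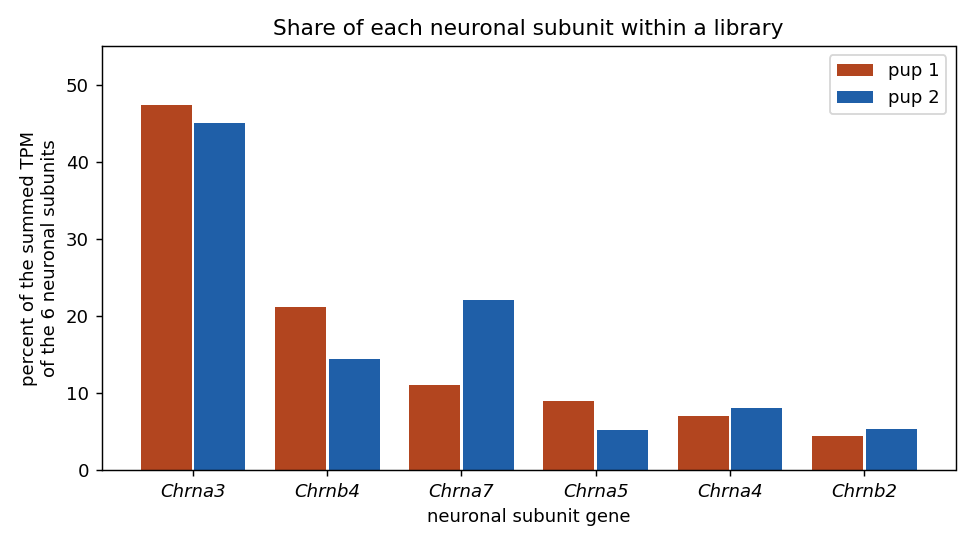
Percent of the summed TPM of the 6 neuronal subunits held by each subunit, with bars from 0 for pup 1 and pup 2 side by side. Chrna3 holds 47.4% and 45.0%, while Chrna7 holds 11.1% in pup 1 and 22.0% in pup 2.

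Most members came from 1 annotated transcript, so their gene values are transcript values. This holds for Chrna3, Chrna5, Chrna7, Chrnb2, Chrnb4 and Chrna1. Chrna4 has 4 transcripts in the tables. The coding transcript ENSMUST00000067120.9 held 49.3% of the gene's TPM in pup 1 and 64.0% in pup 2. The rest was almost all ENSMUST00000135766.3, a processed transcript with no annotated coding frame, with 49.2% and 36.0%. That share rested on 42.46 and 16.91 estimated counts over 712 bases, and its TPM interval ran from 0.797 to 2.40 in pup 1 and from 0.108 to 1.44 in pup 2. The coding transcript stood at 1.72 and 1.50 TPM, lower than the gene total and closer between the pups. A second coding transcript, ENSMUST00000108851.3, added 0.05 TPM in pup 1 and 0 in pup 2. For Chrnb1 the coding transcript ENSMUST00000045971.8 held 90.7 ± 1.94% (n = 2), and a retained-intron transcript held the remainder.

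Pup 1 had more of the neuronal transcripts than pup 2 after scaling. The log2 ratio of pup 2 over pup 1 was taken on counts scaled by edgeR's trimmed mean of M values (TMM), for genes averaging at least 10 counts over the pups. It carries a 95% interval that covers counting error only. The median over the 6 neuronal subunits was -1.05, and the median of all 18654 genes was 0.0026. Of the 8 members with a ratio, 7 were higher in pup 1, as were 49.8% of all genes. A difference of more than 2-fold with pup 1 higher was seen for 4 of the 8, against 9.72% of all genes. The counting interval lay wholly beyond 2-fold for 3 of these, and not for Chrna1. None of the 8 was more than 2-fold higher in pup 2, against 6.03% of all genes. Intervals for TPM did not overlap between the pups for 5 of the 8, near the 61.5% of all genes, so on that measure the members did not stand out.

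Chrna5 had the lowest ratio, -1.93 (-2.22 to -1.65), which places it at the 2.05 percentile of all genes. This is 3.81-fold more in pup 1. Chrnb4 followed at -1.72 (-1.87 to -1.56) and the 2.87 percentile. Chrna3 had a ratio of -1.24 (-1.33 to -1.14), or 2.35-fold more in pup 1, at the 6.60 percentile. The trio thus differed within itself: the interval of Chrna3 did not overlap those of Chrna5 and Chrnb4, although these are neighbouring genes for subunits of the same receptor. Outside the cluster the ratios were nearer to 0, with Chrnb2 at -0.87 (-1.09 to -0.65), Chrna4 at -0.68 (-0.93 to -0.44) and Chrna7 at -0.17 (-0.36 to 0.03). The interval of Chrna7 includes 0, so no difference between the pups was detectable for it at this depth.

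Among muscle subunits, Chrna1 had a ratio of -1.06 with an interval from -2.17 to -0.07. Chrnb1 had a ratio of 0.30 (-0.08 to 0.70), which includes 0. Chrnd, with 6 counts against 1, gave an interval from -8.19 to 0.37, and Chrng gave no fold because both pups were at or under the limit. Chrna1 and Chrnb1 pointed in opposite directions, and their median of -0.38 describes neither.

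The directions depend on the scaling between libraries. TPM ratios were 0.38 above the scaled count ratios at the median. By TPM ratio, with 0.1 added to each TPM, only Chrna5 and Chrnb4 were over 2-fold apart, and the sign of Chrna7 changed to 0.21. The share of all genes over 2-fold apart by TPM ratio was not computed. By that ratio the neuronal median was -0.70, against 0.38 for the median of all genes. Spike-in scaling, from 5717 spike-in counts in pup 1 and 1022 in pup 2, moved every ratio by about 2.57. It turned the neuronal median to 1.51 and took the median of all genes to 2.56. Under both alternatives the neuronal median remained below the median of all genes.

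**Figure D4:**
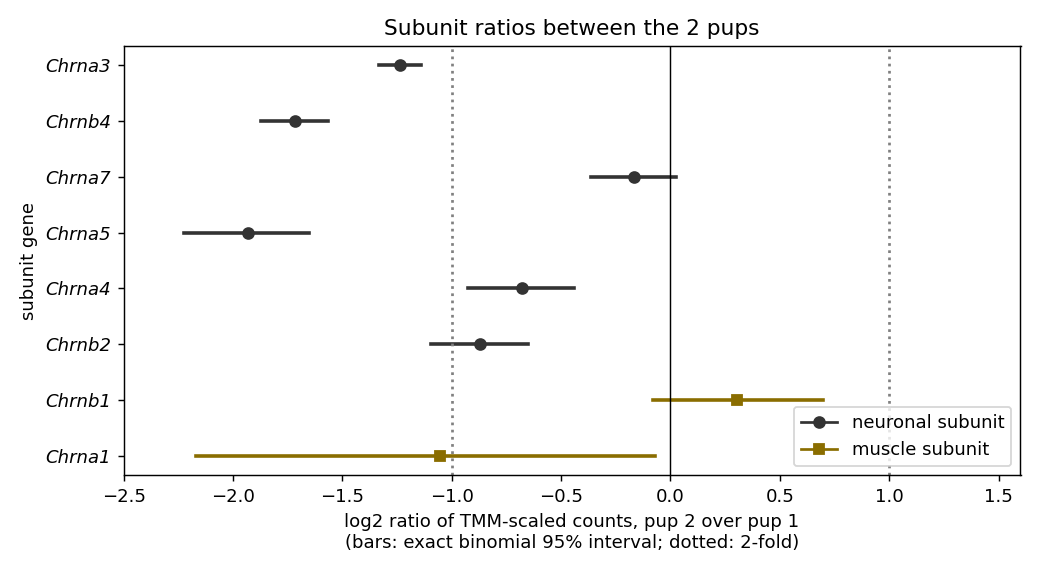
Log2 ratio of pup 2 over pup 1 from scaled counts for the 8 subunits averaging at least 10 counts, with bars for the 95% counting interval and dotted lines at 2-fold. Chrna5, Chrnb4 and Chrna3 lie lowest, at -1.93, -1.72 and -1.24, and the bars of Chrna7 and Chrnb1 cross 0.

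The other 6 nicotinic subunit genes were at or near 0. None reached 1 TPM in either pup. Chrna6 and Chrnb3, subunits of receptors on dopaminergic and retinal neurons, had 0 counts in both pups. Chrna2 had 2 counts in each. Chrna9 of the cochlear receptor had 6 and 3 counts, and Chrne, the adult muscle subunit, had 5 and 1. Chrna10, the partner of Chrna9, had 0 counts in pup 1 and 21 in pup 2 (0.27 TPM), at least 6.60-fold higher in pup 2 when 0 is set to 3 counts. In GENCODE M21 this gene shares 1025 exonic bases with Art1 on the opposite strand, which had 69 and 75 counts. The Art1 transcripts that were quantified here share 0 of these bases.

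Genes for receptor assembly and for the Ly6 proteins that bind nicotinic receptors were mostly higher in pup 2, opposite to the neuronal subunits. Of 8, 6 were higher in pup 2, and the median ratio was 0.69. Of all genes, 49.8% were higher in pup 1. Tmem35a (NACHO), a chaperone for receptor assembly, stood at 56.86 TPM in pup 1 against 143.07 in pup 2, a ratio of 0.95 (0.89 to 1.00). Ric3, a chaperone best known for alpha7, stood at 6.76 and 18.34 TPM, a ratio of 0.77 (0.65 to 0.88). Ric3 shares 149 exonic bases with Tub on the opposite strand. Lynx1, a membrane-anchored modulator of nicotinic receptors, stood at 4.78 and 10.38 TPM (ratio 0.67), and Ly6e at 215.63 and 462.14 TPM (ratio 0.71). Lypd6 stood at 1.81 and 5.61 TPM, a ratio of 0.75. Lypd6b was low, at 0.39 and 0.85 TPM, and its ratio of 0.44 had a counting interval from -0.22 to 1.12. Lypd1, another Ly6 modulator, was higher in pup 1, at 10.23 TPM in pup 1 against 3.70 in pup 2, a ratio of -2.03. It shares 1202 exonic bases with Gpr39 on the opposite strand, which stood at 0.30 and 0.46 TPM. Ly6h was nearly level in TPM, at 35.5 and 34.81, and higher in pup 1 by its scaled count ratio of -0.48. None of these 8 genes was over 2-fold higher in pup 2, against 6.03% of all genes. Only 1, Lypd1, was over 2-fold higher in pup 1, against 9.72% of all genes.

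Genes that carry and break down acetylcholine followed the direction of the neuronal subunits by scaled count ratio. Of 7 genes 6 had enough counts for a ratio, and their median ratio was -1.59. These 6 were higher in pup 1, 4 of them by more than 2-fold, against 49.8% and 9.72% of all genes. Ache, the enzyme that breaks down acetylcholine, was the most abundant, at 30.6 TPM in pup 1 against 10.87 in pup 2, a ratio of -1.88. Prima1, which anchors that enzyme in neuronal membranes, stood at 5.52 and 3.04 TPM (ratio -1.29). Slc18a3, the vesicular acetylcholine transporter, stood at 1.77 and 0.54 TPM (ratio -2.08), and Slc5a7, the choline transporter of cholinergic nerve endings, had 29 and 6 counts (ratio -2.26). Chat, the synthesizing enzyme, went the other way, with 1 count in pup 1 and 7 counts in pup 2, below the minimum for a ratio. The cell bodies of preganglionic neurons lie in the spinal cord, outside the dissected tissue. Bche, a second cholinesterase, stood at 1.65 and 1.73 TPM, and its scaled count ratio of -0.42 has the opposite sign to its TPM ratio of 0.07. Colq had 21 and 13.21 counts, a ratio of -0.75 with a counting interval from -1.90 to 0.29.

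At the neuromuscular endplate the muscle receptor is gathered by agrin, Lrp4, Musk, Dok7 and rapsyn. Rapsn, the receptor's scaffold, stood at 1.80 and 2.64 TPM, and Musk, its kinase, at 0.43 and 0.30 TPM. Dok7, which activates Musk, stood at 2.29 and 4.71 TPM (ratio 0.66). Agrn, also made by many other tissues, stood at 17.91 and 14.39 TPM (ratio -0.65), and Lrp4, the agrin receptor, at 3.08 and 2.96 TPM (ratio -0.47). Of these 5 genes 3 were higher in pup 1 and 2 in pup 2, none by more than 2-fold. Myod1, a master regulator of muscle that binds E boxes, had 1 count and 12 counts, and Myog had 9 and 29 counts (ratio 1.55). Myf5 had 0 and 3 counts and Myf6 had 11 and 14.

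Markers of several cell types differed between the libraries, and their part in the subunit ratios was not tested. In bulk tissue, fewer cells of a type and less RNA per cell cannot be told apart. Markers of the labelled tissue were present: 7 of 7 cortex markers and 12 of 12 chromaffin markers were above 1 TPM in both pups. Cortex markers had a median ratio of 1.18. Sympathetic neuron markers were over 2-fold higher in pup 1 for 9 of 9 genes, with a median ratio of -2.02 and a summed level of 1323 TPM in pup 1 against 429 in pup 2. Schwann cell and glia markers were higher in pup 1 for 8 of 8 genes, with summed levels of 207 and 104 TPM. Leukocyte markers were higher in pup 1 for 5 of 7 genes, 3 of them by more than 2-fold, with a median ratio of -0.61 and summed levels of 1144 and 701 TPM. Chromaffin markers were split, with 5 of 12 higher in pup 1, a median ratio of 0.21 and summed levels of 2970 and 5731 TPM. Their ratios ran from -1.20 to 1.19, with 1 gene over 2-fold higher in pup 1 and 4 in pup 2. How specific each marker list is to 1 cell type was not tested. The 8 sympathoadrenal regulators, shared by chromaffin cells and sympathetic neurons, had a median ratio of -0.95, and 7 were higher in pup 1.

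The levels of Chrna3 and Chrna7 were set against the medians of 3 lists: the sympathoadrenal regulators, the sympathetic neuron markers and the chromaffin markers. The TPM of Chrna3 was 68.9% of the regulators' median in pup 1 and 64.8% in pup 2 (66.8 ± 2.89%). It was 25.7% and 30.6% of the sympathetic neuron markers' median. Against the chromaffin markers' median it was 13.9% in pup 1 and 4.46% in pup 2. These are descriptions of a pair of libraries and were not tested.

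Skeletal muscle markers were over 2-fold higher in pup 2 for 10 of 10 genes, with a median ratio of 1.79 and a summed level of 97.4 TPM in pup 1 against 407 in pup 2. Acta1, the actin of skeletal muscle, stood at 42.33 and 163.14 TPM. Chrna1 did not share that direction, with 26 counts in pup 1 and 13 in pup 2, and Chrnb1 was higher in pup 2 by 0.30 with an interval that includes 0. Whether muscle RNA adds to the muscle subunit counts was not tested.

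**Figure D5:**
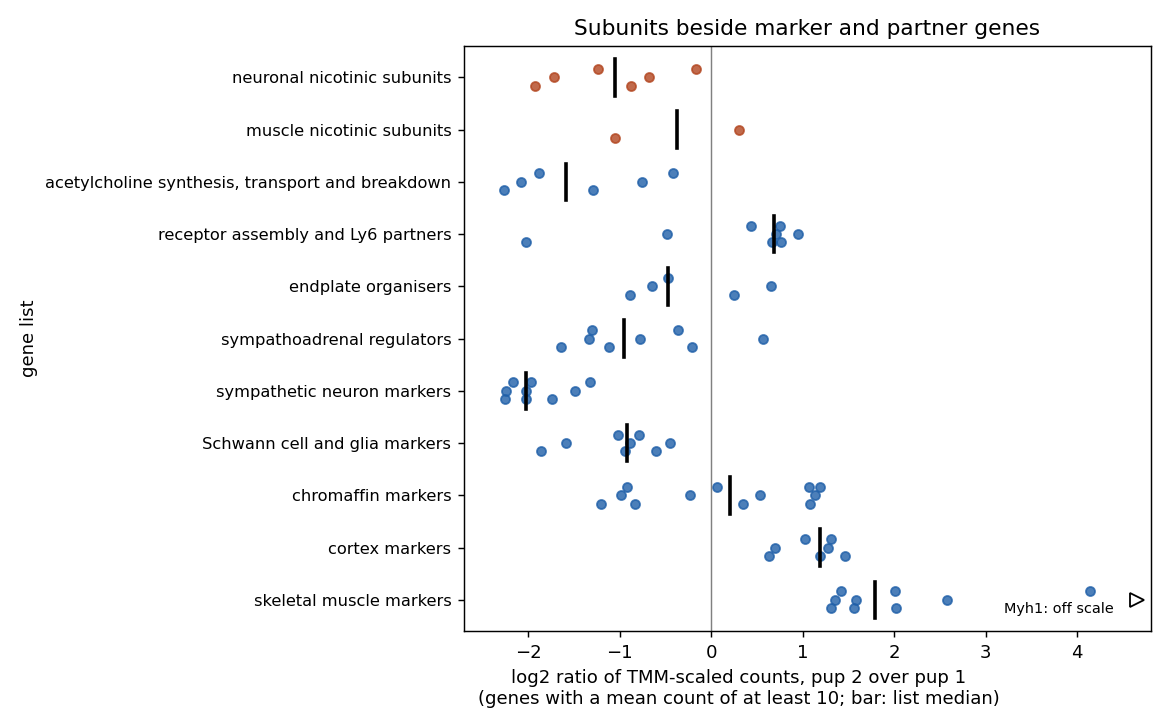
Log2 ratio of pup 2 over pup 1 from scaled counts for the subunits and for partner and marker lists, 1 point per gene averaging at least 10 counts and a bar at each list's median. Neuronal subunits centre at -1.05, sympathetic neuron markers at -2.02, assembly and Ly6 genes at 0.69 and skeletal muscle markers at 1.79, with Myh1, which had 0 counts in pup 1, drawn as an arrow off the scale.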

How the data were processed

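Total RNA was measured in 2 libraries, 1 per pup, grouped by the labels. Per the file headers, the authors deposited gene and transcript tables with expected counts (estimates, not always whole), TPM with an interval whose confidence level is not given, FPKM, and isoform percent (the share of each transcript in its gene's TPM). The deposited text names mm10 and GENCODE M4. The aligner, quantifier and strand setting remain not given in the sources used here. Deposited TPM is per length and scaled over all rows, and deposited FPKM, used as an alternative, is per length and per library reads.

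GENCODE M21, on the same build, gave symbols and coordinates, and RefSeq (GRCm38.p6) gave upstream sequence. Counts were rounded, spike-in and numbered rows were left out of scaling (0.0138% and 0.00260% of counts), and TMM factors came from edgeR 4.0.16 in R 4.3.3. A pseudocount of 0.5 was added for log2 ratios of counts, and 0.1 for the alternative ratios of TPM or FPKM. Intervals are exact binomial at 95% (scipy 1.17.1) and, since no molecular identifiers are named, cover counting error only. With 1 library per pup no p-value was computed. The quantifier's posterior SD of the count was 0 in both pups for all 10 members, so the tables record no uncertainty in assigning their reads among genes. The ratio script was tested on simulated data. Alternatives covered scaling, pseudocount, count and TPM minimums, TPM or FPKM in place of counts, and the choice of members.

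All 10 members are named, as may be any gene of a list of at most 8 genes and, of longer lists, the 5 with the highest mean TPM. Myh1, outside that rule, is named because its 0 counts set it off the plotted scale, after its values were seen. The members and lists were chosen with earlier results of these data known.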

Additional observations from a re-analysis of the deposited data

How the results depend on the processing

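Spike-in scaling turned the neuronal median ratio to 1.51 and the muscle median to 2.15, and it turned Chrna3 to 1.33, Chrna4 to 1.88, Chrna5 to 0.63, Chrnb2 to 1.69, Chrnb4 to 0.85 and Chrna1 to 1.44. Its spike-in totals, 5717 (pup 1) against 1022 (pup 2), were a small share of each library but lay above the counts of most subunits. Under this scaling the median of all genes was 2.56. Whether it or TMM lies nearer to the true ratios was not tested. Why the spike-in totals differed was also not tested. The TPM ratio, with 0.1 added to each TPM, moved the neuronal median to -0.70, beside 0.38 for all genes. It left 2 subunits over 2-fold apart in place of 4 and turned the muscle median to 0.14. Without the added 0.1 the TPM ratio was -0.74 for Chrna1 and 0.71 for Chrnb1, so that turn rests on the addition. With Chrna3, Chrna5 and Chrnb4 alone the neuronal median was -1.72, and without Chrnb2, an alternative chosen after seeing the data, it was -1.24. With a mean count of at least 100 the muscle median rests on Chrnb1 alone, 0.30. The neuronal over muscle level was 5.41 by medians and 7.61 without Chrnb1, and it ran from 3.67 to 5.08 over single pups. At a TPM of at least 2, 4 subunits remained. Single-pup values aside, 18 of 20 alternative TPM values of single subunits moved by less than the spread between the pups, and the others were the posterior means of Chrnd (0.11) and Chrng (0.23). Summed transcript TPM, among the 20 for each subunit, repeats the gene TPM by construction apart from rounding and could not move. Spike-in scaling aside, 49 of 56 alternative ratios of single subunits stayed within the counting interval. Ratios from posterior mean counts, among the 56 for each subunit, could not leave it, because these counts repeat the expected counts of the members. The sign changed in 1 of the 56, Chrna7 by TPM ratio (0.21), and spike-in scaling also turned Chrna7, to 2.40. No paired analysis was possible because both libraries belong to 1 group.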

Other observations

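Muscarinic receptors, the G protein-coupled receptors for acetylcholine, were low beside the more abundant neuronal nicotinic subunits. None of the 5 genes reached 1 TPM in both pups, although 2 did in pup 1. Chrm1, a receptor of neurons and ganglia, stood at 1.41 TPM in pup 1 against 0.69 in pup 2, from 304 and 107 counts, a log2 ratio of -1.59. Chrm2, known from heart and autonomic nerve endings, stood at 2.19 and 0.52 TPM, a ratio of -2.24. It shares 142 exonic bases with 9330158H04Rik on the opposite strand. Chrm3, the receptor of glands and smooth muscle, had 11 counts in pup 1 and 26 in pup 2, a ratio of 1.12 with a counting interval from 0.09 to 2.32. Chrm4 and Chrm5 had 10 counts in each pup.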
